A study of Homo sapiens with 24 samples.

Results

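Integrins are cell surface receptors made of 1 alpha and 1 beta subunit, and laminins are the basement membrane proteins that several of them bind. The genes described here were every integrin subunit and every laminin chain that a probe set of the array assigned to 1 gene symbol, chosen by gene name and not by measured values. The rule names 38 genes, 26 integrin subunits and 12 laminin chains. Of these, 35 were measured (25 integrin subunits and 10 laminin chains), each by 1 probe set, among 17448 genes tested. The other 3, ITGA1 and LAMA3 among them, were not analysed here.

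The data were 24 expression arrays of the human colorectal cancer line SW1222, in 9 groups that differed in DPPA3, a gene of early germ cells whose product binds the DNA methylation factor UHRF1. A DPPA3-overexpressing line (DPPA3-OE) and its control line (control-OE) were grown embedded in Matrigel as megacolonies (3D) with 5 µg/ml doxycycline for the last 5 days, on 3 arrays each. The same lines were grown in 2D with 5 µg/ml doxycycline for 4 hours, on 3 arrays each. The controls carried the drug too, and no array of the DPPA3-OE line without it was analysed here, so a response to DPPA3 and a standing difference between the lines cannot be told apart. DPPA3 shRNA cells and control shRNA cells were grown in 3D without treatment, on 3 arrays each. CRISPR knockout clones 66 (C66) and 75 (C75) and the knockout control were grown in 3D without treatment, on 2 arrays each, and each clone is 1 clonal line. All cultures were kept at 21% oxygen. Whether the replicates came from separate cultures is not stated in the labels, and the p-values then measure only the spread between these arrays, which may be technical. The number of arrays limits the precision. The median standard error (SE) of a log2 difference over the 35 genes stood at 0.12 with 3 arrays a group and at 0.14 with 2.

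The DPPA3 signal checked the labels of the DPPA3-OE line: it lay between 3.77 and 4.74 log2 in induced 3D cultures, against 2.59 to 2.99 in control-OE cultures, and between 4.18 and 6.16 in induced 2D cultures, against 2.83 to 3.47. No loss was measurable with the shRNA (log2 difference -0.04), in C66 (-0.16) or in C75 (0.19), where the control signal was already dim. All 12 listed markers of colorectal epithelium were above the array median on all 24 arrays, and their mean per array ran from 8.58 to 9.17 log2. Of 10 fibroblast and mesenchymal markers 9 were below it on all 24 arrays (array mean 2.74 to 3.09, COL1A1 the exception). Of 8 leukocyte markers measured 7 were (2.61 to 2.93, CD79A the exception), and of 6 endothelial markers measured 5 were (2.84 to 2.99), while CLDN5 was above it throughout.

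An integrin reaches the cell surface as a pair. ITGB1 encodes the beta1 subunit, the partner of most alpha subunits, while ITGB4 pairs with ITGA6 alone in hemidesmosomes, the anchors that tie epithelial keratin to the basement membrane. ITGA2 with ITGB1 binds collagen, ITGA3 and ITGA6 with ITGB1 bind laminin, ITGA5 with ITGB1 binds fibronectin, and ITGAV pairs with several beta subunits, among them the epithelial ITGB6, whose heterodimer activates latent TGF-beta. A laminin is a trimer of 1 alpha, 1 beta and 1 gamma chain. LAMA3 and LAMB3 are chains of the laminin of hemidesmosomes, and LAMA5 with LAMB1 or LAMB2 and LAMC1 forms the main laminins of mature intestinal basement membrane. Matrigel, the gel of the 3D cultures, is itself a mouse basement membrane extract rich in laminin.

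The promoters of LAMB3, ITGA5 and ITGB1 are shown because these were the 3 members called with DPPA3 induction in 3D, and because DPPA3 is known for its action on DNA methylation, which falls on CpG dinucleotides. Each is 300 bases of the human reference, from 250 bases before the most upstream start that RefSeq's table lists to 50 bases after it (GRCh38.p14). The table lists 3 starts for LAMB3, 2 for ITGB1 and 1 for ITGA5, and the windows at the other starts were not searched. All 3 lie on the minus strand and are written 5′ to 3′ in the direction of transcription, with matches to the searched motifs in capitals. The LAMB3 window is chr1:209652376-209652675, the ITGA5 window chr12:54419217-54419516 and the ITGB1 window chr10:32958181-32958480.
LAMB3: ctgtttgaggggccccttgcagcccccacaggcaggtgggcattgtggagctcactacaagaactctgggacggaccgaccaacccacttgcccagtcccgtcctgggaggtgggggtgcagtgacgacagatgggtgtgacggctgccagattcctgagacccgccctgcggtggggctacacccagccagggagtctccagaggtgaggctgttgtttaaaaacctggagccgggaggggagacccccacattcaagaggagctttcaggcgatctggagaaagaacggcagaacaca
ITGA5: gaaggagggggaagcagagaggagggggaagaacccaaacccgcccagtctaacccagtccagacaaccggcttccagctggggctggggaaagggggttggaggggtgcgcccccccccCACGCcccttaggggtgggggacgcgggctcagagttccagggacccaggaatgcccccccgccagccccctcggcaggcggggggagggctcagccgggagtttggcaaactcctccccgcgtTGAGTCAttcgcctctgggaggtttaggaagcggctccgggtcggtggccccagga
ITGB1: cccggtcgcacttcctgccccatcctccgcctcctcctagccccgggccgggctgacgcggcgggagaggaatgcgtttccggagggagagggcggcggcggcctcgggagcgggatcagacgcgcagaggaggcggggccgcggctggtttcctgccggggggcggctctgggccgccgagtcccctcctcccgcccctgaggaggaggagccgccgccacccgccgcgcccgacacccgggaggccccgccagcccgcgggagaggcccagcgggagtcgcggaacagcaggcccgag
The ITGB1 window held 39 CpG dinucleotides, the ITGA5 window 16 and the LAMB3 window 10, against a median of 13 both over the 24 members with a listed promoter and over 27305 listed promoters. The motifs searched on both strands were TGANTCA, bound by AP-1 factors, and ACGTG and GCGTG, the cores of hypoxia response elements, searched because the study's title names HIF1A. The ITGA5 window held TGAGTCA, its first base 6 bases before the start, and CACGC, which is GCGTG on the opposite strand, further upstream. The LAMB3 and ITGB1 windows shown held none of the 3. TGANTCA stood in 1 of 24 members' promoters and in 7.72% of all, ACGTG in 2 of 24 and 21.6%, and GCGTG in 10 of 24 and 36.4%. A match is a run of letters only, and neither methylation nor factor binding was measured.

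In level the members ran from bright genes to genes below the median gene of the array. Of the 35, 9 gave a signal above the median gene of the array on all 24 arrays: ITGA2, ITGA6, ITGAV, ITGB1, ITGB4, ITGB6, LAMB1, LAMB2 and LAMC1. These encode the collagen receptor, the hemidesmosome integrin and the alphaV-beta6 pair of epithelia, and beta and gamma chains of laminins. On all 24 arrays 20 members lay below the array median, 15 integrin subunits and 5 laminin chains. Among them were the alpha subunits of leukocyte integrins ITGAL, ITGAM, ITGAX and ITGAD, their partner ITGB2, and the platelet subunits ITGA2B and ITGB3. The remaining 6 crossed the median between arrays: ITGA3, ITGA5, ITGB5, ITGB7, LAMA5 and LAMB3. These counts were not made over all genes, so they cannot be read as many or few. Near the bottom of the scale a signal holds little information on RNA, and a difference there can understate a change.

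Of the 35 members, 9 passed the test in at least 1 of 9 comparisons and 26 in none. The same count was not made over all genes, so these 9 cannot be read as many or few. The share of all genes is given with each comparison below. Counts at an unadjusted p under 0.05 were not made over all genes, so those too cannot be read as many or few. Each comparison was tested with limma over all genes, with 2-sided p-values adjusted by Benjamini-Hochberg, and a gene was called at an adjusted p under 0.05. The log2 differences of the 26 lay between -0.41 and 0.41 in all 9 comparisons. All arrays are of bulk RNA, so fewer cells with a transcript and less of it per cell cannot be told apart.

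**Figure D1:**
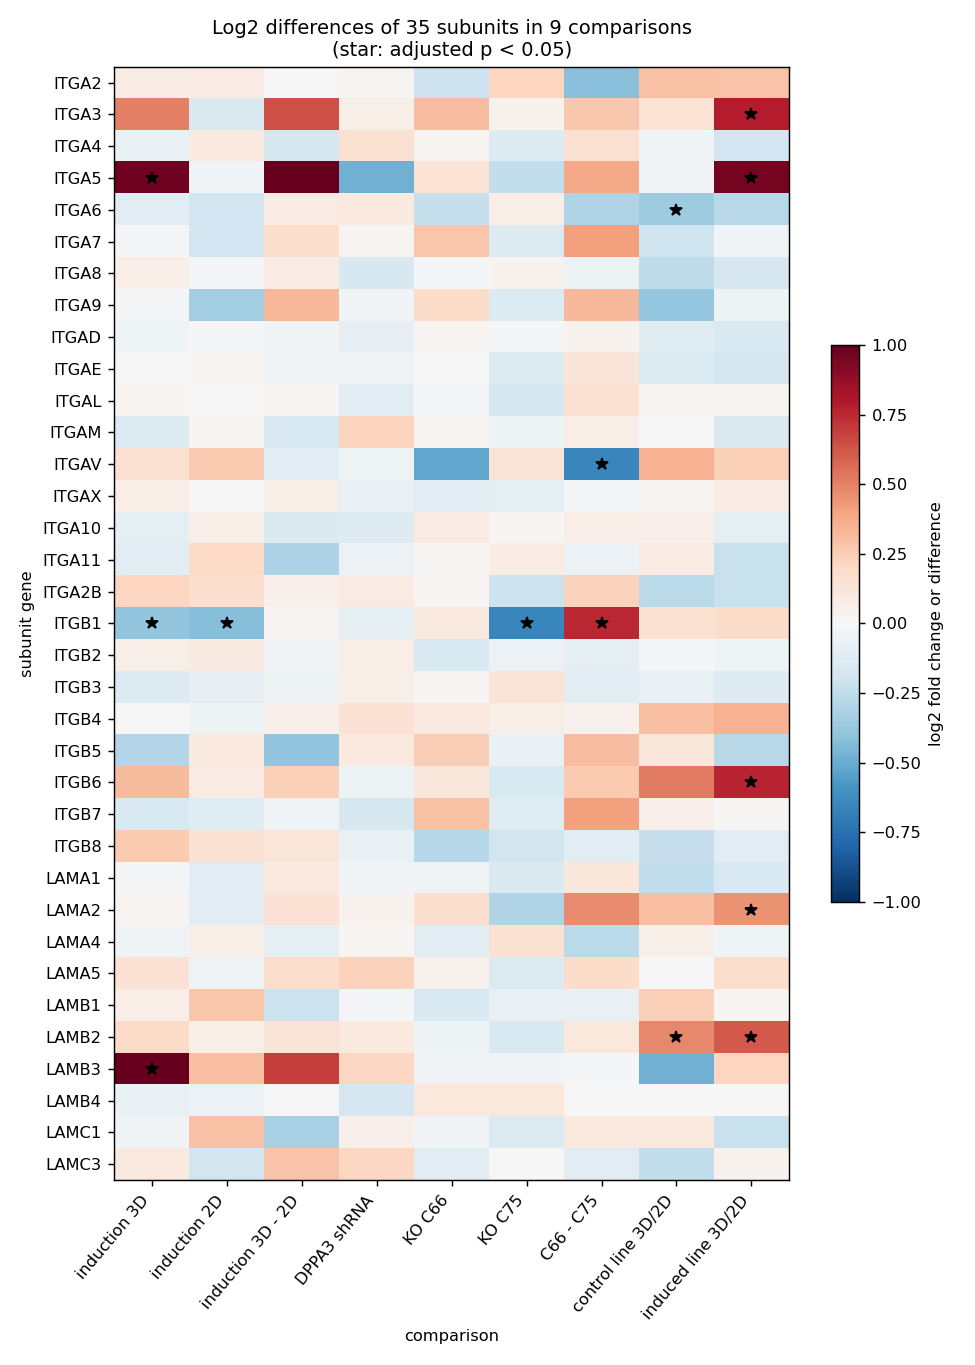
Log2 difference of each of the 35 measured members (rows) in each of the 9 comparisons (columns), as colour, red higher and blue lower in the group named first, with a star where the adjusted p was under 0.05. Most cells are pale, and the stars fall on 9 genes: LAMB3, ITGA5, ITGB1, ITGAV, ITGA3, ITGA6, ITGB6, LAMA2 and LAMB2.

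With DPPA3 induced in 3D, the laminin chain LAMB3 and the fibronectin receptor subunit ITGA5 were higher than in the control line and the beta1 subunit ITGB1 was lower. These 3 of 35 members (8.57%) stand beside 5.7% of all genes called in this comparison, in either direction. The median log2 difference was 0.00 over the members and -0.01 over all genes, and the members' medians were 0.00 for integrin subunits and 0.05 for laminin chains.

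LAMB3 encodes the beta3 chain, found in the laminin of hemidesmosomes. Its signal was 5.40, 4.75 and 4.46 log2 in DPPA3-OE megacolonies, against 3.94, 3.86 and 3.81 in control-OE megacolonies. The groups did not overlap, and the 3 induced arrays spread over more than the whole distance from the lowest of them to the highest control. The log2 difference was 0.997 (SE 0.16, 95% interval 0.68 to 1.32, adjusted p = 1.35e-04), where 1 log2 unit is a 2-fold difference in signal. Without any single array it ran from 0.73, without induced replicate 1, to 1.20, and stayed called. In 2D, 4 hours after the drug, LAMB3 read 4.58, 4.74 and 4.64 in DPPA3-OE cells, against 4.30, 4.27 and 4.48 in control-OE cells. These groups did not overlap either, but the log2 difference of 0.30 did not pass (95% interval -0.02 to 0.63, adjusted p = 0.404). The 3D effect minus the 2D effect was 0.69 (95% interval 0.24 to 1.15, adjusted p = 0.267), and the control line itself had a log2 difference of -0.48 between 3D and 2D (adjusted p = 0.0574).

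Some genes around LAMB3 on chromosome 1 were also higher. Of the 10 tested genes on either side, 5 of 20 were called higher in 3D and 0 lower. The 5 of the 20 whose mean signal exceeded the median gene all had positive log2 differences, with a median of 0.34 in 3D and 0.55 in 2D. Over all 20 the median was 0.16 in 3D and 0.05 in 2D. CD46, a complement regulator, differed by 0.48 in 3D and 0.55 in 2D, and RCOR3, a chromatin corepressor, by 0.89 and 0.75. RCOR3, the outermost of the 10 on its side, had the largest difference of the 20 in both cultures. Directly beside LAMB3, G0S2 differed by 0.06 in 3D and -0.33 in 2D, and PLXNA2 by 0.23 and 0.34. CD55, among the brighter, differed by 0.34 and 0.01. What the neighbourhood contributes to the LAMB3 difference was not tested.

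ITGA5 encodes the alpha5 subunit of the fibronectin receptor. It read 4.69, 4.79 and 4.44 log2 in DPPA3-OE megacolonies, against 3.74, 3.93 and 3.35 in control-OE megacolonies. The lowest induced array lay above the highest control, and the log2 difference was 0.97 (SE 0.17, 95% interval 0.61 to 1.33, adjusted p = 7.35e-04), with 0.81 to 1.10 without any single array. In 2D it read 3.28, 4.13 and 3.63 in DPPA3-OE cells, against 3.99, 3.54 and 3.60 in control-OE cells, so the groups overlapped and the log2 difference was -0.03 (95% interval -0.39 to 0.33, adjusted p = 0.969). The 3D effect minus the 2D effect was 0.998 (SE 0.25, 95% interval 0.49 to 1.51), which did not pass over all genes (adjusted p = 0.106) except when replicate 2 of the induced 2D cultures was left out. The 20 genes around ITGA5 on chromosome 12 had a median log2 difference of -0.01 in 3D, and 0 of them were called by limma. The 5 of them brighter than the median gene had a median of 0.09. The induced level was not outside the range of the untreated megacolonies: over the 12 arrays of the shRNA and knockout experiments ITGA5 lay between 3.81 and 4.90, with a median of 4.22. LAMB3 lay between 3.80 and 4.52 on those 12 arrays (median 4.36), below 2 of its 3 induced values. The control-OE megacolonies were low beside the same arrays. Their LAMB3 values of 3.94, 3.86 and 3.81 lay below that median. Of their ITGA5 values, 3.74 and 3.35 lay below the whole range there and 3.93 inside it. What the low control level contributes to either difference was not tested.

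ITGB1 was the bright subunit that was lower with induction in both cultures. In 3D it read 5.99, 6.04 and 6.04 log2 in DPPA3-OE cells, against 6.30, 6.36 and 6.58 in control-OE cells, and in 2D 5.85, 5.84 and 5.83 in DPPA3-OE cells, against 6.28, 6.13 and 6.39. In neither culture did the groups overlap, and the induced arrays lay closer together than the control arrays. The log2 difference was -0.39 in 3D (SE 0.10, 95% interval -0.59 to -0.19, adjusted p = 0.0157) and -0.42 in 2D (SE 0.10, adjusted p = 0.0132). The 3D effect minus the 2D effect was 0.03 (95% interval -0.26 to 0.32). Leaving out replicate 1 of the DPPA3-OE cells (adjusted p = 0.0626) or replicate 3 of the control-OE cells (0.106) ended the 3D call, and leaving out replicate 3 of the control-OE cells ended the 2D call (0.0859). Both were lost when only the arrays compared set the spread (0.102 in 3D and 0.100 in 2D).

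**Figure D2:**
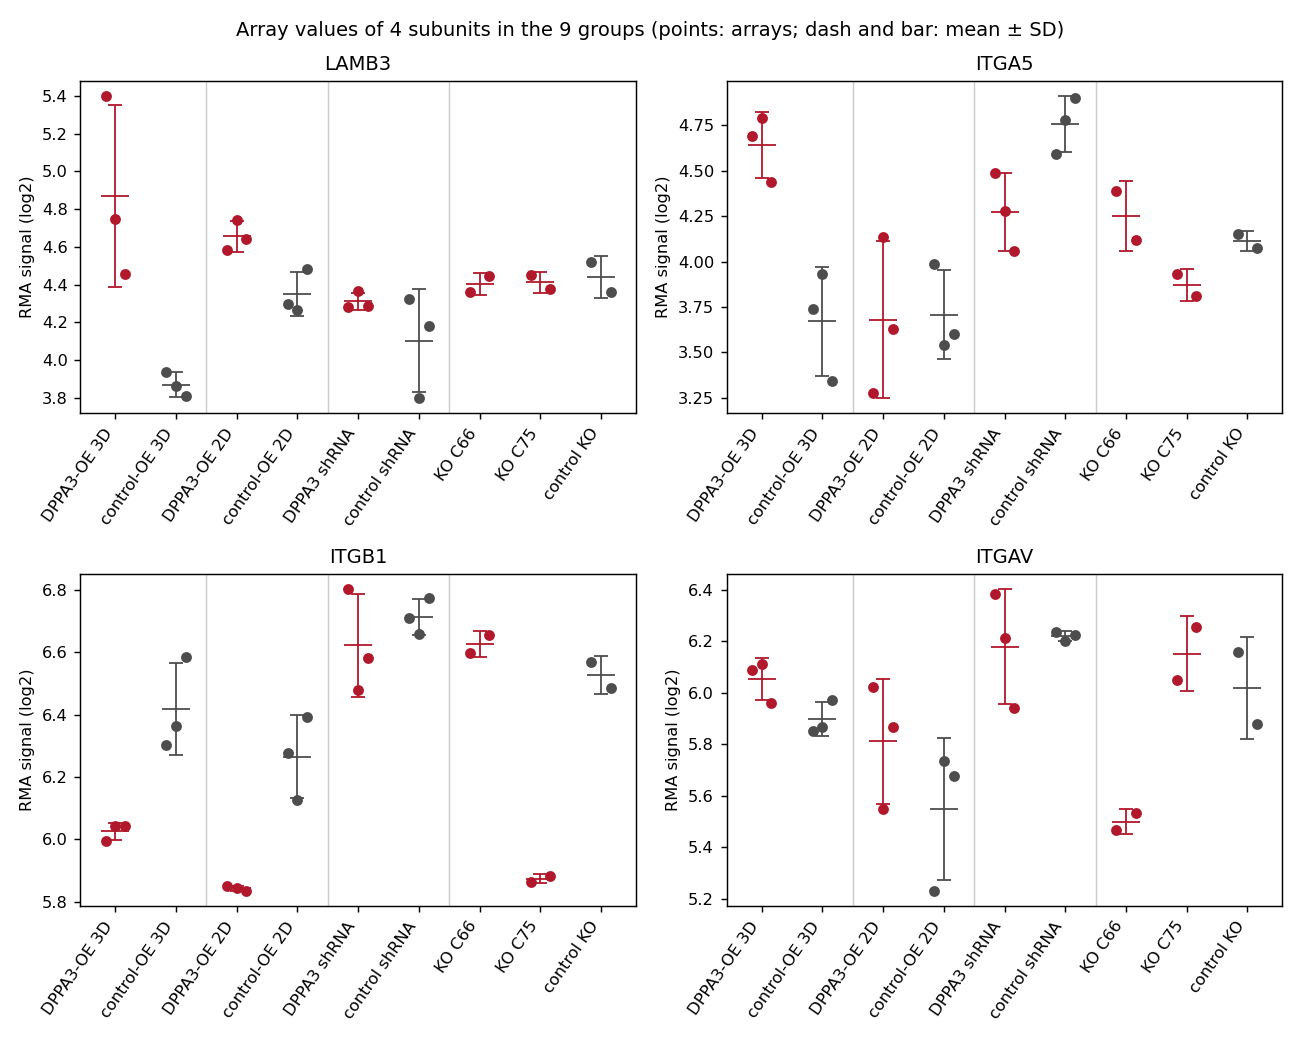
Log2 signal of LAMB3, ITGA5, ITGB1 and ITGAV on each of the 24 arrays (points), by group, with the group mean and SD (bars). The induced 3D points of LAMB3 and ITGA5 sit above those of their control line, the ITGB1 points sit low in both induced groups and in clone C75, and the ITGAV points sit low in clone C66.

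In 2D, after 4 hours of doxycycline, 1 of 35 members was called (2.86%), ITGB1, beside 3.13% of all genes. In the test of the 3D effect minus the 2D effect limma called 0 of 35 members, beside 0.241% of all genes, and 5 of the 35 had an unadjusted p under 0.05. The median log2 difference in 2D was 0.01 over the members and 0.00 over all genes.

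ITGA2, ITGA3, ITGA6, ITGAV, ITGB4 and ITGB6 and the laminin chains LAMA5, LAMB1 and LAMC1 were called in neither induction comparison. ITGA3 read 5.11, 4.68 and 4.89 in DPPA3-OE megacolonies, against 4.52, 4.34 and 4.32 in control-OE megacolonies. Those groups did not overlap, and the log2 difference of 0.50 had a 95% interval of 0.18 to 0.83 (adjusted p = 0.0628). For the collagen receptor subunit ITGA2 the log2 difference was 0.08 in 3D (95% interval -0.13 to 0.29), for ITGA6 -0.11 (-0.32 to 0.10) and for ITGB4 0.00 (-0.30 to 0.30). For ITGAV it was 0.16 (-0.12 to 0.43) and for ITGB6 0.32 (-0.03 to 0.67). LAMA5 differed by 0.14 (-0.07 to 0.35), LAMB1 by 0.07 (-0.17 to 0.31) and LAMC1 by -0.03 (-0.24 to 0.17). In 2D LAMC1 differed by 0.29 (adjusted p = 0.138) and LAMB1 by 0.28 (adjusted p = 0.260).

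With the DPPA3 shRNA limma called 0 of 35 members, beside 0.086% of all genes, and 2 of the 35 had an unadjusted p under 0.05. The median log2 difference was 0.02 over the members and 0.00 over all genes. ITGA5 read 4.49, 4.28 and 4.06 in DPPA3 shRNA cells, against 4.59, 4.78 and 4.90 in control shRNA cells. The groups did not overlap, and the log2 difference of -0.48 (95% interval -0.84 to -0.12) had an unadjusted p of 0.0108 and an adjusted p of 0.707. LAMB3 read 4.28, 4.36 and 4.29 in DPPA3 shRNA cells, against 4.33, 3.80 and 4.18 in control shRNA cells, a log2 difference of 0.21 (95% interval -0.11 to 0.53). ITGB1 read 6.80, 6.48 and 6.58 in DPPA3 shRNA cells, against 6.71, 6.66 and 6.77 in control shRNA cells, a log2 difference of -0.09 (95% interval -0.30 to 0.11). For both of these the groups overlapped.

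The 2 knockout clones differed from each other in ITGB1 and ITGAV. In C66 limma called 0 of 35 members, beside 1.43% of all genes, and 1 had an unadjusted p under 0.05. In C75 it called 1 of 35 (2.86%), ITGB1, beside 0.619% of all genes. Between C66 and C75 it called 2 of 35 (5.71%), ITGB1 and ITGAV, beside 2.9% of all genes. Both clones share the same 2 control arrays, and the comparison between them does not use those.

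ITGB1 was at 6.597 and 6.66 log2 in C66 and at 5.86 and 5.88 in C75, against 6.57 and 6.48 in the knockout control. The C75 arrays lay below the other 4, and the C66 arrays lay just above the control. The log2 difference was 0.10 in C66 (95% interval -0.15 to 0.35, adjusted p = 0.916) and -0.65 in C75 (SE 0.12, adjusted p = 0.00423). The C75 call was lost without replicate 1 of the control (adjusted p = 0.118) or without either C75 array (0.0648 and 0.0658). Between C66 and C75 the log2 difference was 0.75 (95% interval 0.50 to 1.003, adjusted p = 2.56e-04), and it stayed called in all 10 alternatives run.

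ITGAV encodes the alphaV subunit. It read 5.47 and 5.53 in C66 and was at 6.05 and 6.25 in C75, against 6.16 and 5.88 in the knockout control. The C66 arrays lay below the other 4, while C75 and the control overlapped. Between C66 and C75 the log2 difference was -0.65 (SE 0.16, 95% interval -0.99 to -0.31, adjusted p = 0.0248). It did not pass without any single array of the 4 (adjusted p of 0.0626 to 0.298). C66 over the control gave -0.52 (adjusted p = 0.148) and C75 over the control 0.13 (adjusted p = 0.963). The 7 brighter neighbours of ITGAV on chromosome 2 had a median of -0.19 between the clones and all 20 neighbours a median of -0.13, and 0 of the 20 were called.

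Other members were not called in either clone. LAMA2, which encodes the alpha2 chain known from muscle, read 4.01 and 4.01 in C66 and was at 3.62 and 3.45 in C75, against 3.97 and 3.71 in the control. It lay below the array median on all 24 arrays. ITGA2 read 6.98 and 6.89 in C66 and was at 7.35 and 7.35 in C75, against 7.23 and 7.04 in the control, and it differed by -0.41 between the clones (adjusted p = 0.0864). LAMB3 lay between 4.36 and 4.52 on all 6 arrays of the knockout experiment.

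Some genes around ITGB1 on chromosome 10 were lower in the same comparisons in which ITGB1 was. Of its 20 neighbours in gene order 4 were called lower with induction in 3D, 3 with induction in 2D and 2 in C75, and 0 were called higher in any of these. The 7 neighbours brighter than the median gene had a median log2 difference of -0.31 in 3D, -0.43 in 2D and -0.42 in C75, against -0.39, -0.42 and -0.65 for ITGB1 itself. With the shRNA that median was -0.10 and in C66 it was 0.03. Over all 20 neighbours the median was -0.17 in 3D, -0.10 in 2D and -0.11 in C75. CUL2, a scaffold of the ubiquitin ligase that also contains VHL, differed by -0.77 in 3D, -0.55 in 2D and -0.93 in C75. ARHGAP12, a GTPase-activating protein, differed by -0.57, -0.62 and -0.87, and PARD3, a cell polarity protein, by -0.53, -0.44 and -0.51, in the same order. These 3 had the lowest values of the 20 in each comparison. The brightest of the 20, KIF5B, differed by -0.03, -0.05 and 0.16, and FZD8, also bright, by 0.07, 0.01 and 0.01. Of the 7 brighter neighbours, 6 had negative log2 differences in 3D, 6 in 2D and 5 in C75. Between C66 and C75, 6 of the 20 were called higher and 0 lower. What the neighbourhood contributes to the ITGB1 difference was not tested.

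**Figure D3:**
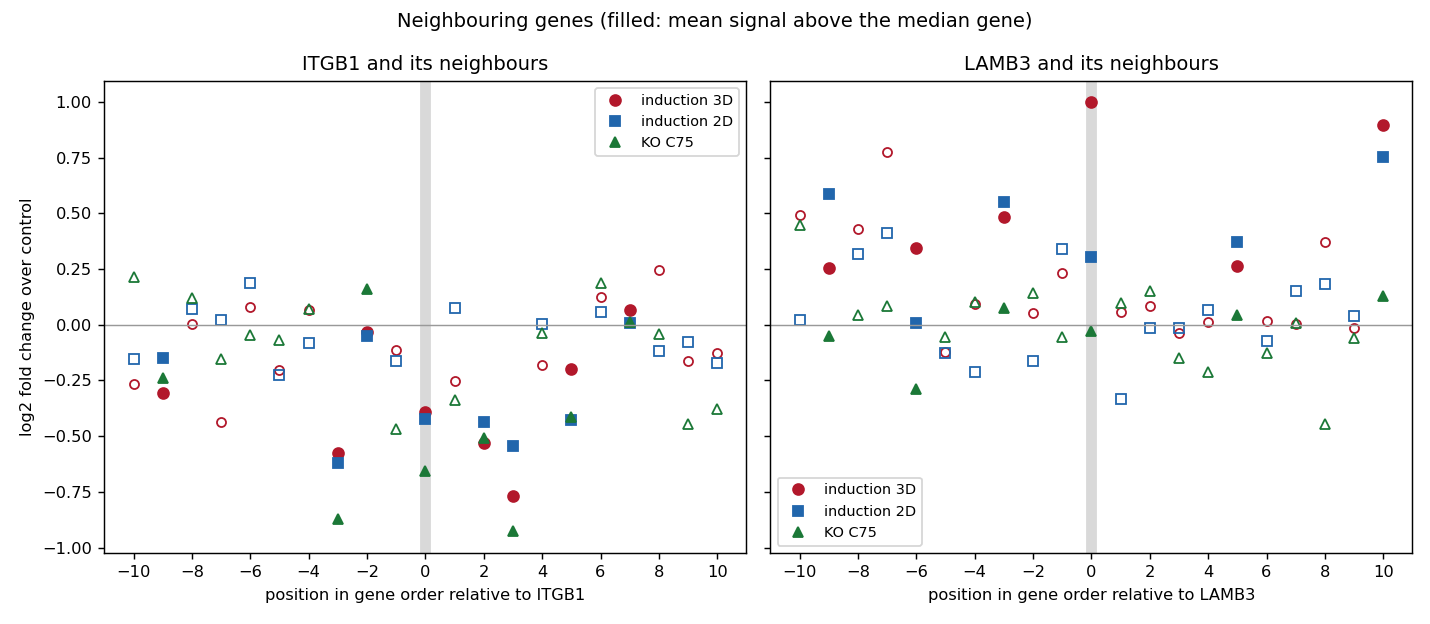
Log2 difference of the 10 tested genes on either side of ITGB1 and of LAMB3, by their position in the RefSeq gene order, for induction in 3D, induction in 2D and clone C75 (filled points, mean signal above the median gene; open points, below it). Filled points around ITGB1 lie mostly below 0 in all 3 comparisons, and those around LAMB3 lie above 0 with induction in 3D and 2D.

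Between 3D and 2D culture members were called about as often as all genes, counted in either direction. The 3D cultures had the drug for 5 days and Matrigel around them and the 2D cultures the drug for 4 hours, so culture and time cannot be told apart. In the control line 2 of 35 members were called (5.71%), beside 7.8% of all genes, LAMB2 higher and ITGA6 lower in 3D. In the DPPA3-OE line 5 of 35 were called (14.3%), beside 14.9% of all genes, and all 5 were higher in 3D (7.55% of all genes were called higher): ITGA5, ITGA3, ITGB6, LAMB2 and LAMA2. In either direction both shares lie near the share of all genes. Counting only genes called higher, the 14.3% in the DPPA3-OE line stand beside 7.55%. The median log2 difference was 0.01 over the members and -0.02 over all genes in the control line, and -0.03 over both in the DPPA3-OE line.

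LAMB2, which encodes the beta2 chain, was called in both lines. It read 5.46, 4.91 and 5.28 in 3D, against 4.74, 4.72 and 4.36 in 2D, in the DPPA3-OE line. The control line gave 5.01, 5.02 and 5.05 in 3D, against 4.62, 4.50 and 4.53 in 2D. The groups did not overlap in either line. The log2 difference was 0.61 in the DPPA3-OE line (SE 0.13, adjusted p = 0.00194) and 0.48 in the control line (SE 0.13, adjusted p = 0.0250). The control line's call was lost after a repeated quantile normalization (0.39, adjusted p = 0.0679) and without any 1 of 5 of its 6 arrays, with replicate 1 in 2D the exception.

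ITGA3, the alpha3 subunit of a laminin receptor, read 5.11, 4.68 and 4.89 in 3D, against 4.14, 4.40 and 3.79 in 2D, in the DPPA3-OE line. The log2 difference was 0.78 (SE 0.16, adjusted p = 9.89e-04), while in the control line it was 0.14 (95% interval -0.19 to 0.46). ITGB6 read 5.25, 5.49 and 5.29 in 3D, against 4.42, 4.68 and 4.66 in 2D, in the DPPA3-OE line. The log2 difference was 0.76 (SE 0.17, adjusted p = 0.00280), and in the control line 0.52 (adjusted p = 0.0616). ITGA5 differed by 0.96 in the DPPA3-OE line (SE 0.17, adjusted p = 3.61e-04) and by -0.04 in the control line (95% interval -0.40 to 0.32). LAMA2, dim throughout, read 3.70, 3.69 and 3.72 in 3D, against 3.32, 3.27 and 3.19 in 2D, a log2 difference of 0.45 (SE 0.11, adjusted p = 0.00645), and 0.30 in the control line (adjusted p = 0.102). The difference between the lines is the 3D effect minus the 2D effect of induction given above, 0.65 for ITGA3 (adjusted p = 0.316), and it was called for none of these genes.

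ITGA6, the alpha6 subunit of the hemidesmosome integrin, was lower in 3D in the control line. It read 9.12, 9.08 and 9.09 in 3D, against 9.34, 9.55 and 9.48 in 2D, in the control line, with no overlap. Its log2 difference was -0.36 (SE 0.10, adjusted p = 0.0317), which a repeated quantile normalization brought to -0.23 (adjusted p = 0.173), and leaving out any array of the 3D group or replicate 2 or 3 of the 2D group also ended the call. In the DPPA3-OE line it read 8.93, 9.05 and 8.97 in 3D, against 9.23, 9.08 and 9.48 in 2D, a log2 difference of -0.28 (adjusted p = 0.0743). Its hemidesmosome partner ITGB4 differed by 0.35 in the DPPA3-OE line (95% interval 0.05 to 0.65, adjusted p = 0.119) and by 0.30 in the control line (-0.00 to 0.60, adjusted p = 0.232).

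**Figure D4:**
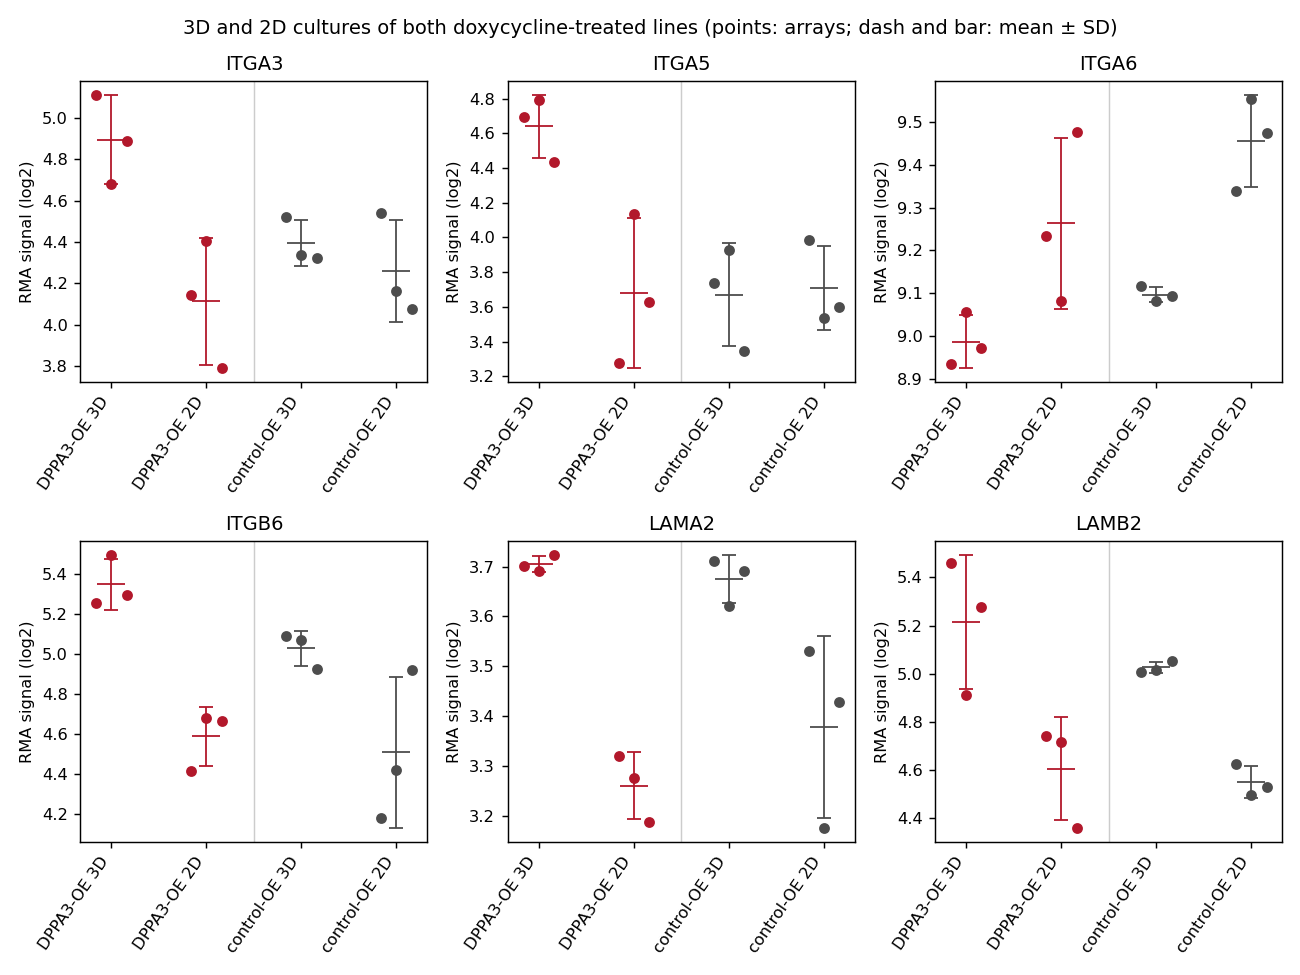
Log2 signal of ITGA3, ITGA5, ITGA6, ITGB6, LAMA2 and LAMB2 on each array (points) of the DPPA3-OE and control-OE lines in 3D and 2D, with the group mean and SD (bars). In the DPPA3-OE line the 3D points of all but ITGA6 lie above the 2D points, and in the control line the 3D points lie apart from the 2D points for ITGA6, ITGB6, LAMA2 and LAMB2.

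The molecules that integrins and laminins work with were followed in 6 lists, of which 91 of 98 genes were measured. With induction in 3D 4 of 91 were called (4.4%), all higher, beside 5.7% of all genes. PXN, the focal adhesion adaptor paxillin, differed by 0.42 (1 of 28 focal adhesion genes, adjusted p = 0.00731), but by 0.23 when all its probe sets were averaged (adjusted p = 0.249). DAB2, an adaptor for integrin endocytosis, differed by 0.88 (1 of 17 traffic genes, adjusted p = 4.21e-05). The 8 brighter genes among its 20 neighbours on chromosome 5 all had positive log2 differences in 3D, with a median of 0.35, and 3 of the 20 were called higher. Over all 20 the median was 0.09. What these neighbours contribute to the DAB2 difference was not tested. The basement membrane proteoglycans HSPG2 and AGRN, which bind laminin, differed by 0.36 each (2 of 18 basement membrane genes, adjusted p = 0.0417 and 0.0474). Both lost the call without any 1 of 5 of the 6 arrays, with induced replicate 2 the exception. The lists of hemidesmosome partners, other laminin receptors and other ligands had 0 called of 28, with 2 at an unadjusted p under 0.05.

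With induction in 2D 7 of 91 were called (7.69%), all higher, beside 3.13% of all genes. In the focal adhesion list these were 4 of 28: the integrin-linked kinase ILK (0.63, adjusted p = 4.42e-04), its partner PARVA (0.61, adjusted p = 0.00684), PXN (0.41, adjusted p = 0.0143, and 0.08 with all probe sets averaged) and TNS4, a tensin (0.53, adjusted p = 0.0345), which was named after its values were seen. TNS4 lost the call without any single array of the 6, PARVA without induced replicate 3, and PXN without induced replicate 1 or 2 or control replicate 3. DAB2 differed by 0.61 (adjusted p = 0.00374), the extracellular matrix glycoprotein TNC by 0.76 (adjusted p = 0.00419) and the hemidesmosome plakin DST by 0.37 (adjusted p = 0.0367), the last lost without replicate 1 or 3 of either group. DAB2 and TNC lost the call when only the arrays compared set the spread (adjusted p = 0.0706 and 0.0739). TNC was dim, at a mean of 3.34 log2 in DPPA3-OE cells against 2.58 in control-OE cells. For 3 of these genes the neighbours are given too: the brighter genes among the 20 around each had a median log2 difference in 2D of 0.37 for ILK, 0.63 for PARVA and 0.52 for DAB2. Over all 20 the median was 0.05 for ILK, 0.37 for PARVA and 0.06 for DAB2. Called higher in 2D were 10 of the 20 around PARVA, 6 of the 20 around DAB2 and 0 of the 20 around ILK, and what they contribute was not tested. In the test of the 3D effect minus the 2D effect limma called 0 of 91, beside 0.241% of all genes, with 7 of the 91 at an unadjusted p under 0.05.

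With the shRNA limma called 0 of 91, beside 0.086% of all genes (6 of the 91 at an unadjusted p under 0.05). In C75 it called 0 of 91, beside 0.619% of all genes (7 at an unadjusted p under 0.05). In C66 2 of 91 were called (2.2%), beside 1.43% of all genes. NPNT, the integrin ligand nephronectin, was higher by 1.12 (SE 0.18, adjusted p = 5.95e-04), and the tetraspanin TSPAN8 was lower, by -0.66 (SE 0.13, adjusted p = 0.00388, lost without replicate 2 of C66 or of the control). Between C66 and C75 8 of 91 were called (8.79%), 6 higher and 2 lower in C66, beside 2.9% of all genes. The 4 of 18 basement membrane genes were NPNT (1.27), the collagen IV chain COL4A5 (0.72) and the FRAS1-related matrix proteins FREM1 (0.74) and FREM2 (0.70), of which FREM2 was named after its values were seen. DAB2 (0.65) and TGFB1 (0.53), a cytokine that alphaV integrins release from its latent form, were higher, and TSPAN8 (-0.72) and the actin crosslinker ACTN4 (-0.79) were lower. The TGFB1 signal was dim, at a mean of 3.26 log2 in C66 against 2.73 in C75. ACTN4 and TGFB1 lost the call without any single array of the 4, DAB2 without either C66 array or C75 replicate 1, and FREM2 without either C66 array or C75 replicate 2.

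Between 3D and 2D culture 11 of 91 were called in the DPPA3-OE line (12.1%), 6 higher and 5 lower, beside 14.9% of all genes. In the control line 10 of 91 were called (11%), 6 higher and 4 lower, beside 7.8%. FREM1 was higher in 3D by 1.29 in the DPPA3-OE line (SE 0.11, adjusted p = 2.30e-08) and by 1.14 in the control line (SE 0.11, adjusted p = 7.80e-07). PARVG, a parvin, was higher by 0.56 in the DPPA3-OE line and by 0.62 in the control line, and held in all 12 alternatives run in each. In the DPPA3-OE line LIMS1, the adaptor that joins ILK and the parvins, was lower by -0.80 (adjusted p = 0.00126), and in the control line by -0.56 (adjusted p = 0.0367, lost without any array but replicate 3 in 3D). Also in the DPPA3-OE line TNS4 was lower by -0.55 (adjusted p = 0.00728) and TNC by -0.62 (adjusted p = 0.00655). TNC was dim, at a mean of 2.72 log2 in 3D against 3.34 in 2D. TNC lost its call without replicate 1 of the 3D group (adjusted p = 0.0643) or of the 2D group, where its log2 difference was -0.38. HSPG2 (0.36) and AGRN (0.37) were higher, and both lost the call without replicate 1 in 3D or replicate 3 in 2D, HSPG2 also without replicate 1 in 2D. The focal adhesion kinase PTK2 was higher by 0.41 in the DPPA3-OE line (adjusted p = 0.0132, lost without replicate 2 in 2D) and by 0.47 in the control line (adjusted p = 0.0112, lost without replicate 1 in 2D). FREM2 was higher in the control line by 0.64 (adjusted p = 0.0116, lost without replicate 2 of either group), and ITGB1BP1, a cytoplasmic partner of the beta1 tail, was lower by -0.39 in the DPPA3-OE line (adjusted p = 0.0219, lost without replicate 1 or 3 in 3D or replicate 2 or 3 in 2D) and by -0.40 in the control line (adjusted p = 0.0298, lost without replicate 1 or 2 of either group). Of the traffic genes ITFG2 was higher by 0.46 in the DPPA3-OE line and by 0.56 in the control line. It lost the call without any array but replicate 3 in 2D in the DPPA3-OE line, and without replicate 1 or 2 in 3D or replicate 2 in 2D in the control line. RAB11A, a GTPase of recycling endosomes, was lower by -0.34 in the control line (lost without any array but replicate 1 in 2D). ITFG1 was higher by 0.40 there (lost without any array but replicate 2 in 2D), and its log2 difference was 0.10 when all its probe sets were averaged (adjusted p = 0.687).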

How the data were processed

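Total RNA of SW1222 cells was hybridised to Affymetrix arrays. The deposited values are log2 signals that the authors made with Partek 6.6 and RMA (background correction, quantile normalization, probe summary), per the submitters' processing notes, and they ran from 1.56 to 12.5. No source used here gives the build of the probe annotation, so RefSeq served only for gene order. Array medians over the genes tested ran from 4.03 to 4.13. Replicate arrays correlated at 0.987 to 0.994 (Pearson's r over genes, which are not independent).

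Of 20276 probe sets 18062 had 1 symbol, 1288 several and 926 none. Only the first were used, the brightest by mean for each of 17448 genes (468 had more than 1). One model with a coefficient for each of the 9 groups was fitted to the 24 arrays with limma 3.58.1 in R 4.3.3 (15 residual and 9.81 prior degrees of freedom). It was tested on simulated data. Replicate numbers were not taken to pair arrays: the deviations of same-numbered arrays correlated at -0.209 to 0.168. Called members were named because they were called, and ITGA2, ITGB4, LAMA5, LAMB1 and LAMC1 whatever their values. Single neighbours of ITGB1 and LAMB3 were named without a set rule. In each partner list the 3 genes with the smallest p among those called were named. Between 3D and 2D, LIMS1 in the control line and PTK2 and ITGB1BP1 in the DPPA3-OE line were named beyond these. The called ZYX (-0.44, control line) and PARVA (-0.41, DPPA3-OE line) were not. Members, lists and alternatives were chosen with earlier results of these data known. Of the genes that the rule names, 1 is not reported here. Promoters came from RefSeq's table (24 of 35 members). Alternatives were all probe sets averaged, a variance prior following the level, genes above the median only, repeated quantile normalization, a replicate block, the compared arrays alone, and each array left out.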

Additional observations from a re-analysis of the deposited data

Results flagged for a closer look

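The clones C66 and C75 were set directly against each other, and 2 members and 8 partner genes differed between them by that test. These were 5.71% of the members and 8.79% of the partner genes, beside 2.9% of all genes. ITGAV, ACTN4 and TGFB1 lost the call without any single compared array, and DAB2 and FREM2 without some of them. ITGB1 (0.75 log2, C66 minus C75) and ITGAV (-0.65) are the members. NPNT (1.27), COL4A5 (0.72), FREM1 (0.74), FREM2 (0.70), DAB2 (0.65) and TGFB1 (0.53) were higher in C66, and TSPAN8 (-0.72) and ACTN4 (-0.79) were lower. With groups of 2 or 3 arrays, single arrays that stand apart from their group were not tested for.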

How the results depend on the processing

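Over the 9 comparisons the alternatives left the number of members called within 1.5 times of the main count except as follows. With the compared arrays alone 0 members were called for induction in 2D, against 1. With only genes above the median level 4 were called between 3D and 2D in the control line, against 2, the additions being ITGB6 and LAMB3. A like count can hold other genes. In the control line ITGA6 and LAMB2 both lost the call under repeated quantile normalization, yet at least 2 other members were called there. Leaving out each array in turn gave 2 to 4 members for induction in 3D, 0 to 1 for induction in 2D, 0 to 1 for the difference of the induction effects, 0 to 1 for C75, 1 for C66 minus C75 in every case, 0 to 2 for the control line and 5 to 6 for the DPPA3-OE line. Over all genes the compared arrays alone gave 468 calls for induction in 3D, against 995, 314 in 2D, against 546, 7 for the difference of effects, against 42, and 562 for the control line, against 1361. Leaving out arrays gave 663 to 989 calls for induction in 3D, 11 to 70 for the difference of effects, 8 to 12 for the shRNA (main count 15), 89 to 120 for C66 (250), 38 to 67 for C75 (108), 259 to 270 for C66 minus C75 (506) and 875 to 1221 for the control line. For the named genes 484 alternatives kept the call and 143 lost it, and 0 reversed. The causes were not tested. With the replicate number as a block, ITGAV between the clones (adjusted p = 0.0519) and ITGA6 in the control line (0.0571) lost their calls, while ITGA3 was called for induction in 3D, LAMA2 between the clones and ITGB6 in the control line. HSPG2, AGRN, DST and RAB11A lost theirs too. The numbers share no known pairing, and a lost call under the block does not mean a smaller difference. The 20 dim members are those below the array median on all 24 arrays, and the background level was not measured. Signals near the bottom of the scale limit what the dimmest of them can show.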

Other observations

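LAMB1, which encodes the beta1 laminin chain, was low on the arrays of the knockout experiment. Its 6 arrays read 6.12 and 6.09 log2 in C66 and were at 6.20 and 6.16 in C75, against 6.41 and 6.10 in the knockout control, while the other 18 arrays lay between 6.52 and 7.38. LAMB1 was the only 1 of the 35 members whose 6 knockout-experiment arrays all lay outside the range of the other 18 (2.86%), beside 64 of 17448 genes in all (0.367%). It was noticed after its values were seen, the experiments were not tested against each other, and the log2 difference from the control was -0.15 in C66 and -0.08 in C75, neither called. LAMC1, a chain of the same laminins, lay between 6.63 and 7.001 on the 6 arrays and between 6.85 and 7.32 on the other 18, so the ranges overlapped.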
